A study of Mus musculus with 8 samples.

Results

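The 6 genes described here encode the receptor tyrosine kinases Ron (*Mst1r*) and Met (*Met*), the Ron ligand (*Mst1*), a protease that activates such ligands (*St14*) and its membrane-bound inhibitors (*Spint1* and *Spint2*). They were taken by symbol from the 37310 genes of a table of read counts, and each symbol matched 1 gene. The group was selected on the counts of *Mst1r* with and without TGF-β, which rose strongly, so these values of *Mst1r* are given below as a description, without a test. The RNA came from NMuMG, a line of mouse mammary gland epithelial cells, in a study of the long non-coding RNA gene *Lnc-Nr6a1* during the epithelial-mesenchymal transition that TGF-β sets off in these cells. There were 8 libraries, 2 for each of 4 conditions. Control cells were untreated or received TGF-β1 at 10 ng/ml for 2 h. *Lnc-Nr6a1* knockout cells were likewise untreated or received the same dose for the same time. All 4 conditions shared the cell line and, in the labels, medium with serum and insulin. The study describes the depleted cells as clones grown from single sorted cells after a CRISPR-Cas9 deletion with guides placed in the promoter and in the first exon, and which clone or clones were sequenced is not given in the sources used here.

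Ron and Met are sister receptors that span the cell membrane. Met is activated by hepatocyte growth factor (*Hgf*) and Ron by macrophage-stimulating protein, the product of *Mst1*, a gene not to be confused with the kinase that bears the same name as an alias. Both ligands are secreted as inactive single chains. Serine proteases at the cell surface, among them matriptase (*St14*), cut them into the form that activates the receptor, and the Kunitz-type inhibitors HAI-1 (*Spint1*) and HAI-2 (*Spint2*) restrain these proteases. In mammary and other epithelia the receptors are known for their roles in scattering, motility and branching.

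The libraries held 4297832 to 13574397 counts, so that 3 counts, taken here as the floor of detection, stood for 0.238 to 0.661 CPM, that is, counts relative to a library size adjusted with TMM factors of edgeR. Floors cover counting error only. The test was edgeR's quasi-likelihood test on the 13028 genes that passed a filter on low counts, and calls required a log2 fold change beyond 0.5 in either direction together with a p under 0.05 after Benjamini-Hochberg adjustment. The targeted gene, listed as *Gm13507*, had 3 and 14 counts in untreated control cells, 25 and 35 after TGF-β, 11 and 7 in untreated cells labelled knockout and 0 in both of the treated ones. As the untreated libraries of the 2 genotypes overlapped in it, those of the knockout label are called libraries labelled knockout throughout. The TGF-β targets *Smad7*, *Skil* and *Snai1* were called higher after TGF-β in both genotypes. *Id1* was called lower in control cells (log2 fold change -0.65, adjusted p = 0.0480) and was not called in the libraries labelled knockout (0.31). Of 7 epithelial markers, *Cdh1*, *Krt8*, *Krt18* and *Krt19* were above the floor in every library, *Cldn3* and *Cldn7* were at 0 in all 8, and *Epcam* had at most 2 counts.

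Start site windows from RefSeq (GRCm38.p6) were found for 5 of the 6 members, all but *St14*, and each 300-base window had a single exact match on the same chromosome of NCBIM37. They are shown for *Mst1r*, the gene that rose, and for *Spint2*, the member that passed the tests below. *Mst1r* has 2 such windows on the plus strand of chromosome 9. The first, chr9:107906639-107906938, lies at the start of the gene. The second, chr9:107914753-107915052, lies 8114 bases further on, and its start site falls in intron 10 of the 19-exon transcript. A short form of Ron without most of the extracellular portion is known to start inside this gene, and the counts, which cover the whole gene, cannot tell the forms apart. The *Spint2* window is chr7:29281928-29282227 on the minus strand. Capitals mark matches, on either strand, to CAGAC, the letters of a Smad-binding element, or to GGGCGG, a GC box.
Mst1r, gene start: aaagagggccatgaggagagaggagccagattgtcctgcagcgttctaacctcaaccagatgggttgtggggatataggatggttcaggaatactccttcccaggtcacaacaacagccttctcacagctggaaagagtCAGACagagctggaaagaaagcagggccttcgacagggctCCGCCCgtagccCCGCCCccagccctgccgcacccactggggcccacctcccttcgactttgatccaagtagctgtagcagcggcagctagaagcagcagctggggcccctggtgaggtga
Mst1r, start in intron 10: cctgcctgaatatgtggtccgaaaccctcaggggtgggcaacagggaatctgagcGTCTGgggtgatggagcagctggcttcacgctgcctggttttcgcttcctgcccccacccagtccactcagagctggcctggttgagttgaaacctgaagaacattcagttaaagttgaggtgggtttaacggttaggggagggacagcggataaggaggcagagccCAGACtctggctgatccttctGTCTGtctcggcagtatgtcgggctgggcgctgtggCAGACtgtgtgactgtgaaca
Spint2: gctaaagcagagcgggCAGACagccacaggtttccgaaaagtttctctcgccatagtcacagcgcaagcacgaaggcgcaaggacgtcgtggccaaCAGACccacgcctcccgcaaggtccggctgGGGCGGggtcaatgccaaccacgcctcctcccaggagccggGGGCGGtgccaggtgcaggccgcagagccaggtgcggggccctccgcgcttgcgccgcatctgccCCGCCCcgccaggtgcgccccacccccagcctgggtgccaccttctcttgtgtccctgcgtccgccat
The first *Mst1r* window held 1 CAGAC at -111 from the start site and GC boxes at -71 and -59, whereas the second held 4 CAGAC and no GC box. The *Spint2* window held 2 CAGAC and 3 GC boxes. The AP-1 element TGANTCA was in neither gene's windows and occurred once each in those of *Met* and *Spint1*. *Met* also had 1 CAGAC and 3 GC boxes, as did *Spint1*, and the *Mst1* window held none of the 3 motifs. No match overlapped another. Such letters are common, since CAGAC was found in 49.5%, GGGCGG in 35.9% and TGANTCA in 7.79% of 32544 start site windows of the same length.

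*Mst1r* (ENSMUSG00000032584.7, chr9:107809220-107822714, plus strand, in NCBIM37 as for the other members below) was near the floor before TGF-β and well above it afterwards. In untreated control cells it had 7 and 12 counts (0.844 and 1.46 CPM), and after TGF-β 344 and 59 counts (32.2 and 6.24 CPM). Every treated control library lay above both untreated ones. The mean level was 1.15 ± 0.44 CPM untreated and 19.2 ± 18.4 CPM treated (SD, n = 2), a ratio of 16.7, and the ratio between single libraries ran from 4.26 to 38.2.

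In the untreated libraries labelled knockout, *Mst1r* had 0 counts in both, which allows up to 0.661 and 0.399 CPM. After TGF-β these cells had 73 and 515 counts (5.95 and 40.9 CPM, mean 23.4 ± 24.7). The groups again did not overlap, and against a floor of 3 counts in each untreated library the treated mean was at least 35.4-fold higher, a bound that was 9.0 for the lower treated library and 61.9 for the higher one. Both TGF-β comparisons are the ones that chose the gene, so no test is attached to them. In bulk RNA, a change in the number of cells that express a gene and a change in the RNA of each cell cannot be told apart.

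Some markers of other cell types, at low counts, also moved with TGF-β, and their part in the rise of *Mst1r* was not tested. Of 6 markers of macrophages, a cell type known for Ron, only *Cd68* was above the floor in every library and *Emr1* was at 0 in all 8. Their summed level was 3.38 to 3.42 CPM in untreated and 3.56 to 4.76 CPM in treated control cells, and 4.41 to 5.71 CPM in untreated and 2.30 to 2.53 CPM in treated libraries labelled knockout, so it was higher after TGF-β in the former and lower in the latter. *Cd68* had 2.89 and 3.30 CPM in untreated and 2.16 and 3.49 CPM in treated control cells, which overlapped, and 4.19 and 5.32 and then 2.45 and 1.99 CPM under the knockout label, where both treated values were the lower. *Csf1r* was the marker of the 6 that was above the floor in both treated control libraries and in neither untreated one. It had 2 and 1 counts in untreated and 15 and 9 in treated control cells, and under the knockout label 0 in both before TGF-β and 0 and 1 after it.

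The sum of 5 hepatocyte markers, *Alb* among them, was 3.26 to 7.32 CPM in untreated and 8.71 to 12.4 CPM in treated control cells, and 3.75 to 12.2 and then 10.5 to 11 CPM under the knockout label, with *Ahsg* at 0 in every library. That of 5 fibroblast markers was 0.965 to 1.83 and then 2.72 to 4.44 CPM in control cells, and 0.797 to 4.63 and then 4.61 to 4.73 CPM under the knockout label, with *Lum* at 0 throughout. The sum of 5 endothelial markers was 0 to 0.362 and then 0.562 to 0.847 CPM in control cells, and 0 to 0.133 and then 0.326 to 0.556 CPM under the knockout label, with *Kdr* and *Tie1* at 0 throughout. In control cells all 3 sums were higher in both treated libraries, whereas under the knockout label this held for the endothelial sum and the other 2 overlapped.

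**Figure D1:**
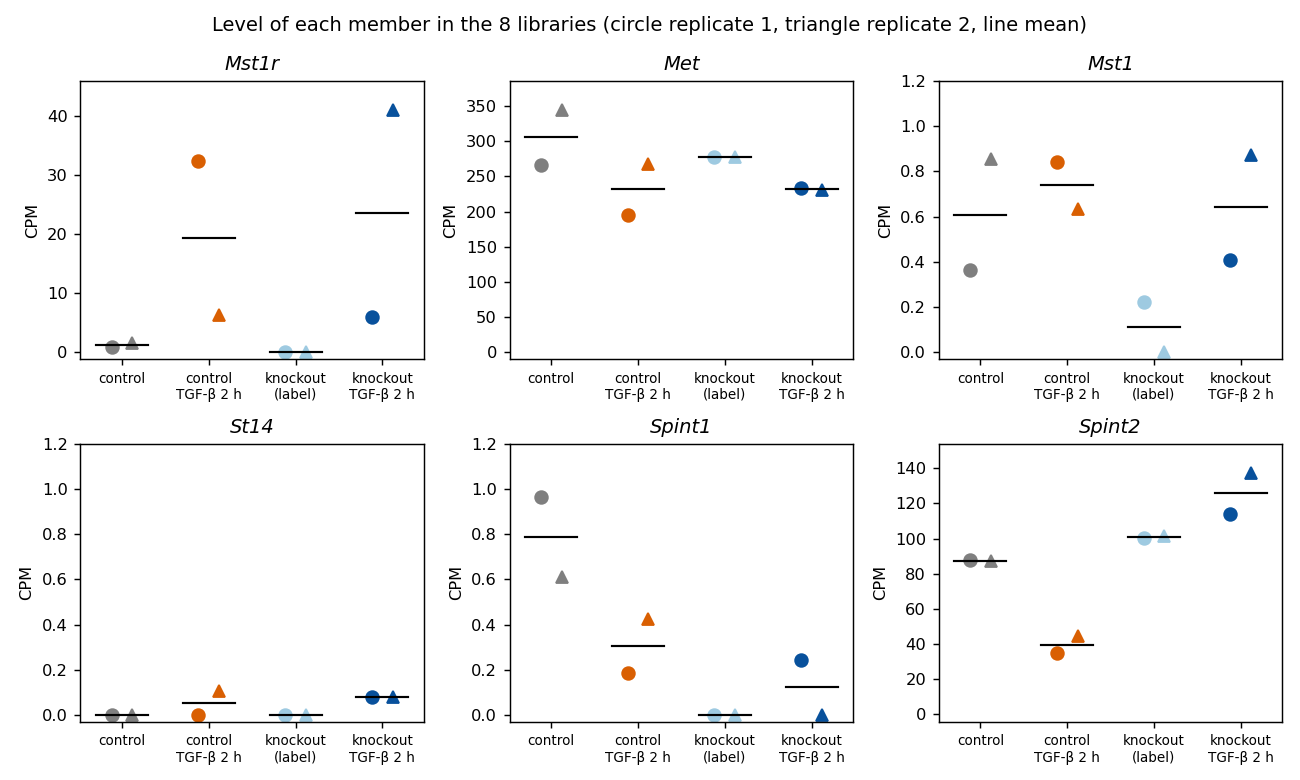
Level of the 6 genes in each of the 8 libraries, in CPM on linear axes that differ between panels. Circles are replicate 1, triangles replicate 2 and lines the mean of the 2 libraries. *Mst1r* is at or below 1.46 CPM in every untreated library and at 5.95 CPM or more in every treated one, *Spint2* falls to 34.9 and 44.7 CPM only in treated control cells, and *Mst1*, *St14* and *Spint1* stay below 1 CPM.

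Between untreated genotypes *Mst1r* is described without a test, as it passed the filter on low counts only through the treated libraries and had 0 counts in both untreated libraries labelled knockout. Both untreated control libraries were above these, and the control mean was at least 1.75-fold higher than their floor. The treated genotypes are likewise only described, since these are the libraries on whose values the gene was chosen. After TGF-β the range of the libraries labelled knockout enclosed that of control cells. The ratio of the mean levels, knockout label over control, was 1.22, and between single libraries it ran from 0.185 to 6.55.

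The replicates of *Mst1r* were far apart after TGF-β. They differed 5.16-fold in control cells, where replicate 1 was the higher, and 6.88-fold in the libraries labelled knockout, where replicate 2 was the higher. Ranked by the difference between replicates, *Mst1r* was number 81 of 13028 genes in the former group and number 24 in the latter. Of all tested genes, 34.1% had the same 2 libraries as the higher ones, and 1.34% differed over 2-fold in both groups with these libraries higher. Of the 44 tested genes of the wider pathway list described below, 23 had this order (52.3%) and 3 did so with over 2-fold in both groups (6.82%). All 3 were among the 13 genes of that list that damp receptor tyrosine kinase signalling, of which 7 had the order (53.8%), a share close to that of the whole list.

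These 3 were *Errfi1*, *Dusp6* and *Spry2*, feedback inhibitors of receptor and ERK signalling, and they were picked out after their values were seen. *Errfi1* had 82.1 and 26.1 CPM in treated control cells and 21.6 and 135 CPM in the treated libraries labelled knockout. *Dusp6*, an ERK phosphatase, had 101 and 30.1 CPM and then 27.6 and 81.5 CPM. *Lrig1*, which promotes the degradation of Met and related receptors, had the same order at a smaller fold, with 197 and 106 CPM and then 82.6 and 180 CPM. Untreated, the replicates of these 4 genes differed by at most 1.32-fold. None of the 4 was called in any comparison, and whether what sets these libraries apart bears on the level of *Mst1r* was not tested.

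**Figure D2:**
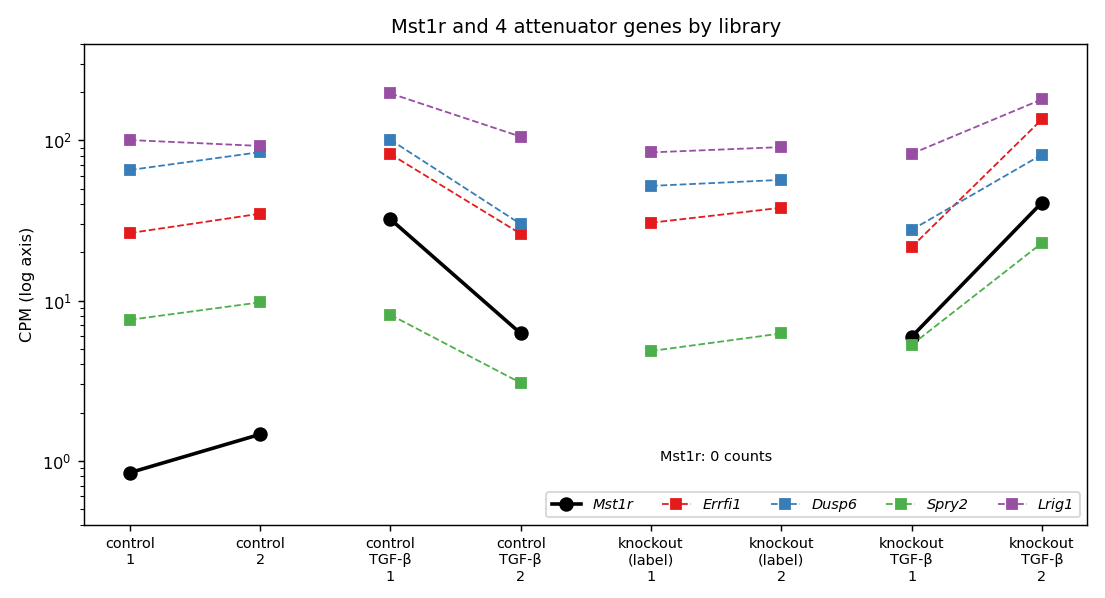
Level of *Mst1r* and of 4 genes that damp receptor signalling in the 8 libraries, in CPM on a log axis, with a line joining the 2 libraries of a condition. In treated control cells all 5 genes are higher in replicate 1 (*Mst1r* 32.2 against 6.24 CPM) and in the treated libraries labelled knockout all 5 are higher in replicate 2 (40.9 against 5.95 CPM). The 2 untreated libraries labelled knockout, at 0 counts of *Mst1r*, have no point for it.

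Across the 8 libraries, the 5 genes whose log2 CPM was most like that of *Mst1r* were *Sept11* (a septin, Pearson's r 0.987), *Chic2* (0.986), *Itpripl2* (0.982), *Rbm12* (an RNA-binding protein, 0.981) and *Rest* (a repressor of neuronal genes, 0.978). *Rest* had 80.9 and 86.5 CPM in untreated control cells, 200 and 133 after TGF-β, 66.8 and 72.2 in untreated cells labelled knockout and 142 and 231 in the treated ones. Like *Mst1r*, it was higher in every treated library than in any untreated one, and higher in the same treated replicates. That likeness comes with its choice by r over the same 8 libraries. Of 13027 other genes, 241 had an r above 0.9. The 8 points fall into 4 pairs of libraries and share their treatment, and 33.0% of the exon bases of *Rbm12* are also exon of *Cpne1*, so that its counts are uncertain. Within 200 kb of *Mst1r*, 11 other genes were tested, of which none was called higher after TGF-β in either genotype and 1 was called lower in control cells. Of all genes, 4.69% were called higher and 4.47% lower in control cells, and 4.25% and 2.57% under the knockout label. With 11 genes, the counts near *Mst1r* cannot be told apart from such shares. They had a median log2 fold change of -0.12 in control cells, and of 0.02 under the knockout label.

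*Met* (ENSMUSG00000009376.8, chr6:17413800-17523980, plus strand), the receptor of hepatocyte growth factor, was abundant in all conditions and was not called in any comparison. Its level was 267 and 345 CPM in untreated control cells, 195 and 268 CPM after TGF-β, 278 and 277 CPM in untreated cells labelled knockout and 234 and 230 CPM in the treated ones. Treated and untreated control cells overlapped narrowly, whereas in the libraries labelled knockout both treated values were below both untreated ones. With TGF-β its log2 fold change was -0.40 (SE 0.18, edgeR adjusted p = 0.191) among control libraries and -0.26 (SE 0.18, adjusted p = 0.445) among those labelled knockout. Between genotypes it was -0.14 (SE 0.18, adjusted p = 0.774) untreated and 0.00 (SE 0.18, adjusted p = 0.994) with TGF-β, and the 2 responses differed by 0.14 (SE 0.26, adjusted p = 0.921).

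*Mst1* (ENSMUSG00000032591.9, chr9:107982767-107987358, plus strand), the gene of the Ron ligand, lies 160053 bases downstream of *Mst1r* and was barely detected. It had 3 and 7 counts in untreated control cells, 9 and 6 after TGF-β, 1 and 0 in untreated cells labelled knockout and 5 and 11 in the treated ones. In CPM both TGF-β groups overlapped untreated control cells, and the untreated libraries labelled knockout were the ones with fewer than 3 counts. *Mst1* did not pass the filter on low counts. Its first part overlaps *Rnf123* on the opposite strand, with 195 shared exon bases of 2286, and as *Rnf123* had 156 to 456 counts a library and how strands were treated in counting is not given, the few counts of *Mst1* are uncertain. *Hgf*, the ligand of Met, had 0 counts in all 8 libraries.

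*St14* (ENSMUSG00000031995.2, chr9:30896987-30939438, minus strand), which encodes matriptase, was not detected above the floor in any library. It had 1 count in treated control replicate 2 and 1 in each treated library labelled knockout, and 0 in the other 5. A pseudogene, *Gm16071*, lies inside it without sharing an exon base. Of 9 other enzymes known or thought to process these ligands, 4 passed the filter on low counts.

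*Spint1* (ENSMUSG00000027315.7, chr2:119063098-119075263, plus strand) encodes HAI-1, the usual partner of matriptase, and was likewise scarce. Control cells had 8 and 5 counts untreated and 2 and 4 with TGF-β, and the libraries labelled knockout had 0 and 0 untreated and 3 and 0 with TGF-β. Both untreated control libraries were above all the others in CPM (0.965 and 0.610, against at most 0.423), at levels within a few counts of the floor. The untreated control mean was at least 1.19-fold that of the floor of the libraries labelled knockout. This bound was 0.923 for the lower control library and 1.46 for the higher one, so the lower was not above that floor. *Spint1* did not pass the filter, and no test is given for it.

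*Spint2* (ENSMUSG00000074227.4, chr7:30041350-30066996, minus strand), which encodes the broader inhibitor HAI-2, was the member that was called. Untreated control cells had 728 and 713 counts (87.8 and 87.0 CPM), and after TGF-β 372 and 422 counts (34.9 and 44.7 CPM). Both treated libraries were far below both untreated ones. The log2 fold change was -1.14 (SE 0.17, edgeR adjusted p = 0.00479), and of the 2 members tested here, *Met* and *Spint2*, it was the 1 called, beside 9.16% of all genes called, 4.69% higher and 4.47% lower. Leaving out control replicate 1 raised the adjusted p to 0.0514 with a log2 fold change of -1.13, and the other 7 libraries, left out in turn, kept it between 0.00394 and 0.0366.

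In the libraries labelled knockout *Spint2* did not pass the test. These had 455 and 762 counts (100 and 101 CPM) untreated and 1397 and 1729 counts (114 and 137 CPM) with TGF-β, both treated values being the higher. The log2 fold change of 0.32 (SE 0.16) had an adjusted p of 0.288 in edgeR, and neither *Met* nor *Spint2* was called, beside 6.82% of all genes (4.25% higher and 2.57% lower).

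Untreated, the genotypes differed little in *Spint2*, with a log2 fold change of 0.21 (SE 0.16, adjusted p = 0.610), and neither *Met* nor *Spint2* was called, beside 1.83% of all genes (1.03% higher and 0.798% lower). After TGF-β, *Spint2* was called higher in the libraries labelled knockout, by 1.66 (SE 0.17, edgeR adjusted p = 9.10e-04). Each of these libraries was at least 2.55-fold above each treated control library. Of *Met* and *Spint2* it was the 1 called in this comparison, beside 15% of all genes called, 8.47% higher and 6.57% lower, and with each library left out its log2 fold change stayed between 1.51 and 1.85 and its adjusted p at or below 0.00454. On chromosome 7, where *Spint2* lies, 943 genes were tested in the libraries labelled knockout against control. Their median log2 fold change was -0.25 untreated and -0.14 with TGF-β, beside 0.02 and -0.01 over all genes. Whether this bears on *Spint2* was not tested.

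The responses of *Spint2* to TGF-β in the 2 genotypes differed by 1.46 on the log2 scale (SE 0.23). By the unadjusted p of 0.000123 it was number 5 of 13028 genes, but the adjusted p was 0.322 in edgeR, where no gene was called (0%), 1134 genes had an unadjusted p below 0.05 and the smallest adjusted p was 0.0615. DESeq2, which called 30 genes, gave *Spint2* an adjusted p of 4.66e-04, and edgeR with no filter on low counts, which called 211, gave 1.42e-05. In limma-voom, which called 0, it was 0.334. The difference of responses thus passed or failed with the tool and filter, while its size ran from 1.33 to 1.67 when single libraries were left out.

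**Figure D3:**
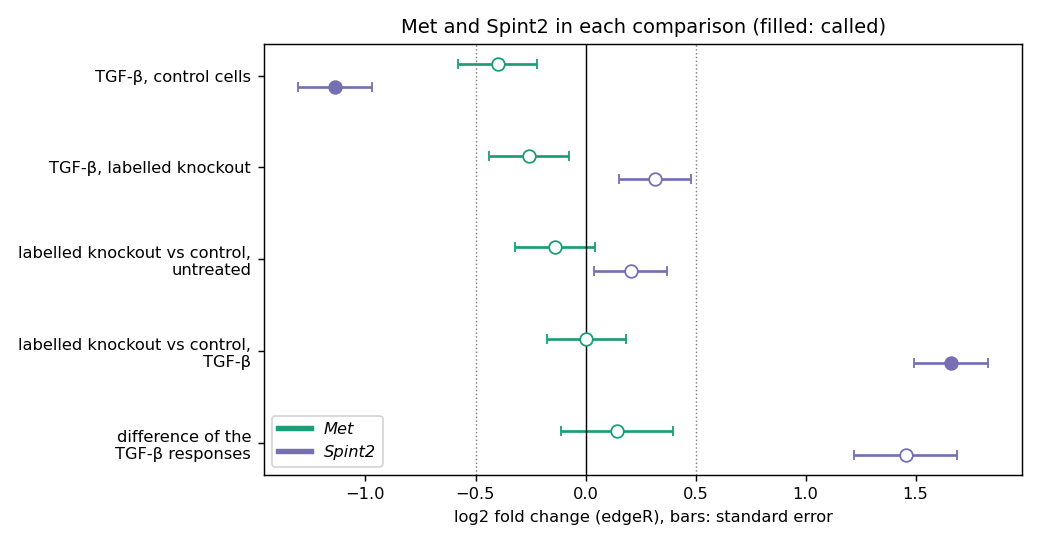
Log2 fold changes of *Met* and *Spint2* in the 4 comparisons and their difference of TGF-β responses, with bars for the standard error of the edgeR fit to 2 libraries a condition, dotted lines at 0.5 and filled points for calls. *Spint2* is called at -1.14 for TGF-β in control cells and at 1.66 for the treated genotypes, and every *Met* estimate lies between -0.40 and 0.14.

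Scaled to exon length, the levels of the members can be set side by side. In untreated control cells *Spint2* had 57.7 ± 0.4 and *Met* 39.6 ± 7.1 RPKM (CPM per kilobase of exon, SD, n = 2), and *Spint1*, *Mst1* and *Mst1r* had 0.285, 0.266 and 0.245, which did not differ beyond their spread. With TGF-β, control cells had 30.0 ± 6.7 RPKM of *Met* and 26.3 ± 4.6 of *Spint2*, levels within their spread, and 4.09 ± 3.91 of *Mst1r*. In the treated libraries labelled knockout *Spint2* (83.0 RPKM, with no overlap between the libraries) was well above *Met* (30.1 ± 0.3), and *Mst1r* (4.98 ± 5.26) was again next. *Mst1r* thus remained below *Met* per length in every treated library, also in the library where it was highest.

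The wider pathway was followed in a list of 52 genes, of which 44 passed the filter. After TGF-β in control cells 5 were called higher and 2 lower (15.9% of those tested, beside 9.16% of all genes), with a median log2 fold change of 0.17 against 0.02 over all genes. Among the proteases, *Plau*, the urokinase that can activate these ligands, went from 13.6 and 17.1 CPM to 75.9 and 49.7 CPM, a log2 fold change of 2.03 (SE 0.36, adjusted p = 0.0110). Of 8 tested membrane partners, *Egfr*, which cross-talks with both receptors, rose by 1.38 (SE 0.17, adjusted p = 0.00203) from 92.9 and 121 CPM to 264 and 295 CPM. The integrin *Itga6* rose by 0.59, while the semaphorin receptor *Plxnb2* had -0.54. Of 19 transducers, *Map2k1* (0.67), the kinase that activates ERK, and *Stat3* (0.65) were called higher, and the adaptor *Crkl* lower (-0.57). None of the 13 genes that damp the signal was called. *Egfr* was called with each of the 8 libraries left out and *Plau* was not called without either untreated control library (adjusted p up to 0.126), whereas the other 5 were called in at most 3 of the 8 fits and in none that lacked an untreated library of either genotype.

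In the libraries labelled knockout 4 of the 44 were called after TGF-β (9.09%, beside 6.82% of all genes), all higher, with a median of 0.33 against 0 over all genes. They were *Plau* (2.25, SE 0.37), *Egfr* (1.55, SE 0.17), *Itga6* (0.87, SE 0.13) and *Map2k1* (0.78, SE 0.17), each also called in control cells. *Egfr* was called in all 8 fits that left out a library, and *Plau* in all except that without untreated replicate 1 of the knockout label. *Itga6* was not called without either untreated library labelled knockout, nor *Map2k1* when any of the 4 libraries compared was left out.

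**Figure D4:**
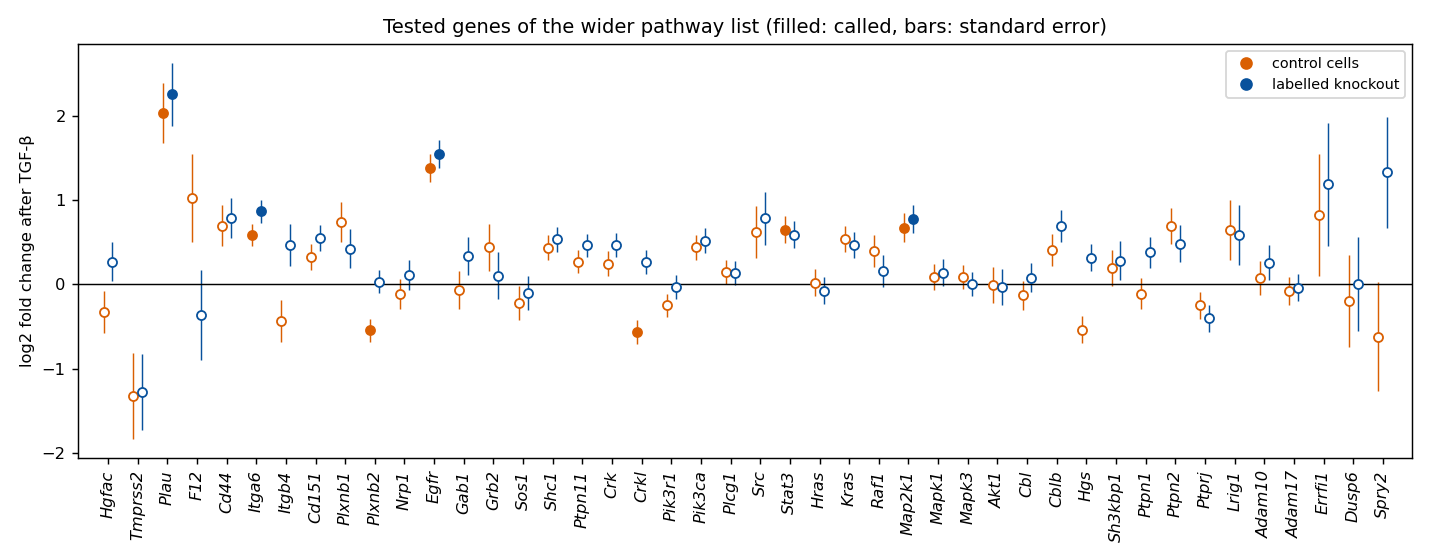
Log2 fold change after TGF-β of the 44 tested genes of the wider pathway list, in control cells (orange) and in the libraries labelled knockout (blue), with bars for the standard error of the edgeR fit and filled points for calls. *Plau* and *Egfr* are called with values of 1.38 to 2.25 in both genotypes. *Tmprss2*, a protease at low counts, has -1.32 in control cells and -1.27 under the knockout label, without a call. The feedback inhibitors *Errfi1*, *Dusp6* and *Spry2* at the right have wide error bars and no call.

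Between genotypes, *Hgfac*, whose product is a plasma protease that activates the ligands of Met and Ron, was the gene of the list called untreated (1 of 44, 2.27%, beside 1.83% of all genes). Control cells had 16.2 and 14.9 CPM, against 41.4 and 42.9 CPM under the knockout label, a log2 fold change of 1.44 (SE 0.24, adjusted p = 0.0208). The groups did not overlap, but the call was lost when any of the 4 libraries compared was left out (adjusted p up to 0.1998). With TGF-β it had 15.2 and 9.52 CPM against 43.8 and 58.1 CPM, and the log2 fold change of 2.04 (SE 0.24, adjusted p = 0.00173) was called in all 8 fits that left out a library.

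With TGF-β, 5 genes of the list were called higher in the libraries labelled knockout and 2 lower (15.9%, beside 15% of all genes), with a median of 0.15 against -0.01. Beside *Hgfac*, the higher ones were *Itgb4* (1.48, SE 0.25), the integrin subunit that associates with Met, *Hgs* (1.05, SE 0.16), which sorts internalised receptors, *Crkl* (0.79, SE 0.14) and *Plxnb2* (0.58, SE 0.13). *Sh3kbp1*, an endocytic adaptor of the Cbl ligases, was lower (-0.78, SE 0.22), as was *Pik3ca* (-0.58, SE 0.15), a catalytic subunit of PI3-kinase. *Itgb4* and *Hgs* were called in all 8 fits that left out a library. *Crkl* lost its call without treated replicate 2 of the knockout label, and *Plxnb2* without that library or control TGF-β replicate 2. *Sh3kbp1* and *Pik3ca* were called in 1 of the 8 fits. No gene of the list was called for the difference of the responses (0% of all genes in edgeR).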

How the data were processed

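The authors deposited whole-number read counts per gene for 8 libraries, without normalization. Per the paper's methods, reads were aligned with subjunc (Rsubread) to mm10 and mm9, and duplicates were removed with samtools. The submitters' processing notes list HISAT2, limma and mm10, and labels and paper also differ in the kit, sequencer and read layout. How reads were counted, and whether by strand, is not given in the sources used here. The genes are, in identity and order, those of GENCODE vM1 on NCBIM37 (mm9).

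Counts were analysed in edgeR 4.0.16 (R 4.3.3): filterByExpr over the 4 groups (13028 genes), TMM factors, a model of group means over all 8 libraries with no block, glmQLFit and glmQLFTest, and Benjamini-Hochberg adjustment over all genes tested. CPM were computed over the tested genes' totals. The standard error is the absolute log2 fold change divided by the square root of the F statistic. Tests of *Mst1r*, whose values chose the group, are not used. Likeness to *Mst1r* was measured on log2 CPM (prior count 2). Groups follow the labels, and the methods call the 2 libraries of a condition biological replicates.

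The named genes are the 6 members, pathway genes called in a comparison (at most the 6 of smallest adjusted p in each direction) with *Hgf*, the 5 genes most like *Mst1r*, the targeted gene, known TGF-β targets (of which 1 is not reported here) and genes that overlap a member or another named gene. Markers of cell types are named from lists, as those above the floor or at 0 in every library. *Epcam*, *Csf1r*, *Cdh5* and *Pecam1* were added after values were seen. Members and lists were chosen with earlier results of these data known. *Errfi1*, *Dusp6*, *Spry2*, *Lrig1* and *Tmprss2*, and the genes near *Mst1r*, were added after values were seen. Alternatives were DESeq2 1.42.0, limma-voom (limma 3.58.1), RLE factors, no filter on low counts, a filter at a mean of 10 counts, a replicate block, fits to only the 4 libraries compared, thinned counts, calls by adjusted p alone and leaving out each library. Scripts were tested on simulated data.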

Additional observations from a re-analysis of the deposited data

Results flagged for a closer look

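In 4 of 46 tested genes (*Met*, *Spint2* and the 44 of the pathway list), or 8.7%, both treated libraries lay on opposite sides of the untreated ones in the 2 genotypes, while the difference of the responses did not pass the test in edgeR. Of all 13028 genes, 686 (5.27%) had such a pattern. *Spint2* was lower after TGF-β in both control libraries and higher in both libraries labelled knockout, and the responses differed by 1.46 on the log2 scale (adjusted p = 0.322). *Itgb4* differed by 0.90 (adjusted p = 0.518), with 124 and 133 CPM untreated and 119 and 70.9 CPM treated in control cells, and 172 and 210 CPM untreated and 219 and 310 CPM treated in the libraries labelled knockout. *Crkl* differed by 0.83 (adjusted p = 0.430) and *Hgs* by 0.86 (adjusted p = 0.444). Of the 4, *Spint2* had the smallest adjusted p.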

How the results depend on the processing

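The call of *Spint2* with TGF-β in control cells and between treated genotypes was kept under every alternative run for it, except that the former was lost without control replicate 1. The exchanged replicate numbers given below were run for the treated genotypes alone. With no filter on low counts 1 member (*Spint2*) was called for the difference of responses, as in DESeq2 (1), and the count between untreated genotypes became 1 through *Mst1r*, whose tests are not used. In the order TGF-β in control cells, TGF-β in the libraries labelled knockout, untreated genotypes, treated genotypes and difference of responses, 7, 4, 1, 7 and 0 pathway genes were called, and 14, 17, 4, 11 and 2 with no filter. DESeq2 called 9 for TGF-β in the libraries labelled knockout and 2 between untreated genotypes. Fits to only the 4 libraries compared called 2, 7, 4 and 2, and the replicate block called 4 for TGF-β in control cells. Leaving out each library gave 0 to 1 members for TGF-β in control cells, and pathway counts of 1 to 7, 1 to 11, 0 to 3, 3 to 10 and 0 to 0. The lowest counts came without control replicate 1 or 2, untreated replicate 1 of the knockout label, any untreated library, and treated replicate 2 of the knockout label, in that order. Fewer samples leave less information on the spread, and the cause of the other moves was not tested.

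Over all genes, 1194, 889, 238, 1959 and 0 were called. With no filter these counts were 2021, 1832, 756 and, for the difference, 211. DESeq2 called 428 between untreated genotypes and 30 for the difference, limma-voom 137 and the replicate block 150 between untreated genotypes, and fits to only the 4 libraries 470, 804 (untreated genotypes) and 410 (treated genotypes). Leaving out each library gave 145 to 1484, 136 to 1381, 42 to 390, 477 to 2762 and 0 to 6.

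The log2 fold change of *Met* between treated genotypes, 0.00, became -3.80e-06 with a mean of at least 10 counts and -0.020 in thinned counts. Without single libraries it ran from -0.19 to 0.25, its untreated genotype difference from -0.32 to 0.055 and its difference of responses from -0.049 to 0.42. The fitted value of *Mst1r* between treated genotypes, a description, ran from -1.69 to 1.92. The replicate numbers are shared by all conditions but the labels do not say that they mark a batch. Deviations of same-numbered libraries correlated over genes with r of 0.30 between control conditions, -0.01 between conditions of the knockout label, 0.10 between untreated and -0.47 between treated genotypes. The replicate block kept the calls of *Spint2* (adjusted p = 0.00805 and 0.00244). With these numbers exchanged in the treated libraries of the knockout label, an alternative added after seeing the data, 1 member, 10 pathway genes and 2809 genes were called between treated genotypes, against 1, 6 and 1490 with the block as numbered. As the exchange followed from the data, the larger counts are no test of what the replicate numbers mark.

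With 2 libraries a condition and totals down to 4297832 counts, *Mst1*, *St14* and *Spint1* had at most 11 counts in any library.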
